A study of Homo sapiens and Mus musculus with 22 samples.

Results

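The OAS and OASL family was followed across 3 RNA sequencing sets from U2OS (human osteosarcoma) and L929 (mouse fibroblast) cultures. Members were chosen by gene symbol: OAS1, OAS2, OAS3 and OASL in the human tables, and Oas1a, Oas1b, Oas2, Oas3, Oasl1 and Oasl2 in the mouse table. All 10 were found, each on a single row that named no other gene. They were 4 of 24549 and 4 of 23760 gene names in the human tables, and 6 of 23849 in the mouse table.

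The OAS enzymes are interferon-induced sensors of double-stranded RNA. On binding it they join ATP into short oligoadenylates, second messengers of the antiviral response. The OASL proteins share the fold but carry ubiquitin-like domains: human OASL has no synthetase activity and acts on RNA and DNA sensing, while in mouse Oasl1 limits translation of Irf7 mRNA and Oasl2 keeps the enzyme activity.

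The first set held U2OS cells from SETDB1 KO1, from SETDB1 KO2 and wild type (WT), all named mock, with 2 libraries each. SETDB1 is a histone H3 lysine methyltransferase that silences repeats and endogenous retroviruses. The second held U2OS with an ATG5 knockdown (KD) treated with BIX-01294 (BIX), ATG5 KD named mock, vector with BIX, and vector named mock. Each group had 1 deposited value, which per the labels stands for 2 replicates. ATG5 is needed for autophagosome formation, and BIX is an inhibitor of the methyltransferases G9a (EHMT2) and GLP (EHMT1), given at 10 µM for 12 h. The third held L929 labelled cGAS KO with BIX, cGAS KO named mock, cGAS WT with BIX, and cGAS WT named mock, with 1 library each. cGAS, encoded by Mb21d1, senses cytosolic DNA. The treatment note of each RNA sample says that the cells received BIX. The sample names were followed instead, so mock is only a name, and the treatment of those cells was not stated elsewhere in the labels. Nothing in the labels says that the 2 libraries of a SETDB1 group came from separate cultures, so p-values measure the spread between these libraries, which may be technical. The 8 chromatin samples were not analysed here.

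Levels are FPKM, fragments scaled to transcript length and to the size of the library, so they can be set side by side between genes. Summed FPKM ranged from 445281 to 564049 per library, and read totals were not in the tables. The RNA of the targeted genes did not separate all groups by their labels. SETDB1 had 5.90 and 7.03 FPKM in KO1 and 6.89 and 7.35 FPKM in KO2, against 9.98 and 9.32 FPKM in WT, a fall of the knockout mean with a log2 difference of -0.45 (limma adjusted p = 0.0433). ATG5 had 13.4 FPKM in KD with BIX and 10.1 FPKM in KD mock, against 12.3 FPKM in vector with BIX and 11.3 FPKM in vector mock. Mb21d1 had 4.41 FPKM in the library labelled cGAS KO with BIX and 1.19 FPKM in cGAS KO mock, against 3.47 FPKM in cGAS WT with BIX and 2.82 FPKM in cGAS WT mock. ATG5 and Mb21d1 RNA with BIX was thus not lower in the library labelled KD or KO, and the groups are named by their labels throughout. Of 7 mesenchymal and osteogenic markers, 5 or 6 reached 1 FPKM in every U2OS library, and 7 of 8 fibroblast markers did so in every L929 library. Some markers listed for other cell types reached it too. These were EPCAM and TCF4 in every U2OS library, CD68 in the SETDB1 set, and Cd68, Il3ra and Tcf4 in every L929 library. The rest of the epithelial, leukocyte, plasmacytoid dendritic and endothelial markers stayed under 1 FPKM in all or most libraries. The libraries are bulk RNA, so a change in the number of cells that make a transcript and a change in RNA per cell cannot be told apart.

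Promoter sequence was at hand for OAS1 and OAS3, whose levels in U2OS are the subject of the first comparison. Both stretches are the 250 bases before the annotated start on chromosome 12, plus strand, from RefSeq on GRCh38.p14. OAS1 is at chr12:112906712-112906961 and OAS3 at chr12:112938224-112938473. Capitals mark matches to the core of the interferon-stimulated response element (GAAA, any 2 bases, GAAA) or to the same repeat with a 1-base spacer (GAAA, any base, GAAA), which was added after the promoters were seen.
OAS1: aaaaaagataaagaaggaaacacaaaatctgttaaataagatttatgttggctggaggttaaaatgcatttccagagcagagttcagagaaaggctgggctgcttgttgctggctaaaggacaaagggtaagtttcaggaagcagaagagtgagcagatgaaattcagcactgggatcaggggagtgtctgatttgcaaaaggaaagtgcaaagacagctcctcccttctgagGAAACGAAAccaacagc
OAS3: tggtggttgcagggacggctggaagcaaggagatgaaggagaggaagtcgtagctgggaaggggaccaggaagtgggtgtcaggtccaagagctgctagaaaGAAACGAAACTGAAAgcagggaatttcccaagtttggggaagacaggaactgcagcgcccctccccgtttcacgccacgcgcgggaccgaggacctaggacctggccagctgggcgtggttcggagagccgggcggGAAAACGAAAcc
OAS3 held 2 matches to the core. They were GAAACTGAAA, whose first base lies 143 bases before the start, and GAAAACGAAA, 12 bases before it. Its 1-base spacer match, GAAACGAAA, began 148 bases before the start and overlapped the upstream core match. OAS1 held no match to the core in this window and 1 to the shorter form, GAAACGAAA, 17 bases before the start. Both strands were searched. Among 35116 RefSeq promoters, in windows of 250 bases before and 50 after the start, 3.57% held the core and 3.12% the shorter form. These matches describe letters and not bound sites.

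In SETDB1 knockout U2OS, OAS3 was the 1 member that rose, and it did so in both knockouts. OAS3, the synthetase that senses long double-stranded RNA, had 7.14 and 7.82 FPKM in KO1 and 7.42 and 7.90 FPKM in KO2, against 4.61 and 4.48 FPKM in WT. All 4 knockout libraries lay above both WT libraries, and the 2 knockouts overlapped each other. Means were 7.48 ± 0.477 FPKM in KO1 and 7.66 ± 0.344 FPKM in KO2, against 4.55 ± 0.0896 FPKM in WT (SD, n = 2 each). On the log2(FPKM + 1) scale, which understates changes of low genes, the knockout mean differed from WT by 0.63 (SE 0.105, limma adjusted p = 0.00436 over 12619 genes). That call held in each of the 12 alternatives tried. OAS3 was among 3.23% of tested genes called in this comparison, 2.45% higher and 0.777% lower.

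Taken singly, the 2 knockouts gave like values for OAS3. KO1 differed from WT by 0.61 on the log2 scale (SE 0.122, limma adjusted p = 0.0174, 2.41% of genes called) and KO2 by 0.64 (SE 0.122, limma adjusted p = 0.0130, 2.43% of genes called). Both contrasts use the same WT libraries. Neither single call held when each library was left out in turn. Leaving out WT replicate 1, WT replicate 2 or KO1 replicate 2 gave limma adjusted p = 0.0748, 0.102 and 0.145 for KO1. Leaving out WT replicate 1, WT replicate 2 or KO2 replicate 2 gave 0.0620, 0.0771 and 0.103 for KO2. The direction stayed in every case. KO1 against KO2 differed by -0.03 (95% confidence interval -0.30 to 0.23), and 0% of genes were called there by limma, with 206 genes at an unadjusted p under 0.05.

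The other members did not pass. OAS1, a synthetase of the same cluster on chromosome 12, had 1.31 and 2.08 FPKM in KO1 and 2.03 and 1.67 FPKM in KO2, against 0.619 and 1.53 FPKM in WT. One KO1 library lay below the higher WT library, so the groups overlapped. The log2 difference of the knockout mean was 0.45 (95% confidence interval 0.04 to 0.85, limma adjusted p = 0.358). OASL had 1.43 and 1.07 FPKM in KO1 and 1.21 and 1.14 FPKM in KO2, against 1.35 and 1.47 FPKM in WT, and 1 KO1 library lay between the 2 WT libraries. Its log2 difference was -0.13 (95% confidence interval -0.42 to 0.16, limma adjusted p = 0.815). OAS2, the member that acts as a dimer, stayed far under the 1 FPKM needed for the test: 0.240 and 0.270 FPKM in KO1 and 0.0580 and 0.0985 FPKM in KO2, against 0.0918 and 0.0240 FPKM in WT. Both KO1 libraries lay above the other 4, at levels where a few fragments set the value.

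The family's RNA in U2OS was thus mostly OAS3, which made up 59.7% to 73.1% of the summed member FPKM over all 10 U2OS values. The sum averaged 10.7 ± 0.798 FPKM in KO1 and 10.8 ± 0.0683 FPKM in KO2, against 7.09 ± 0.588 FPKM in WT (SD, n = 2 each).

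**Figure D1:**
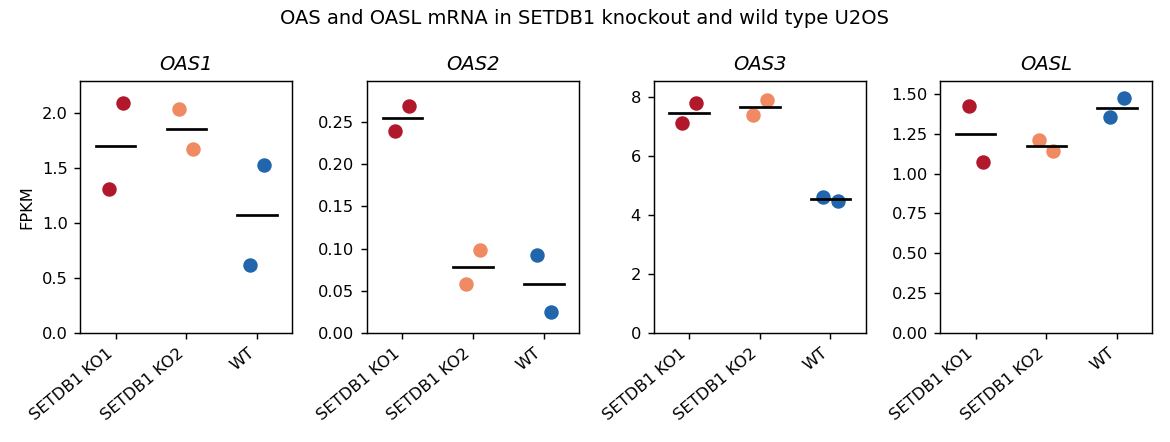
FPKM of OAS1, OAS2, OAS3 and OASL in SETDB1 KO1, SETDB1 KO2 and WT U2OS, with 1 point per library, a bar at each group's mean and a separate vertical scale per gene. The 4 knockout libraries of OAS3 sit between 7.14 and 7.90 FPKM, above WT at 4.48 and 4.61 FPKM, while OAS1 and OASL overlap between knockout and WT.

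PDE12, a phosphodiesterase that degrades oligoadenylates, and ABCE1, a ribosome recycling factor, were not called by limma with SETDB1 knockout (adjusted p = 0.963 and 0.914; unadjusted p 0.802 and 0.580). PDE12 had 9.39 and 8.94 FPKM in KO1 and 7.69 and 9.75 FPKM in KO2, against 9.09 and 8.35 FPKM in WT. Over all genes tested, 3.23% were called in this comparison, 2.45% higher and 0.777% lower. Of 30 other interferon-stimulated genes, 20 could be tested, 1 rose and 1 fell, with a median log2 difference of 0.04 against -0.01 over all genes tested. The riser was IFITM3, which blocks viral entry (log2 difference 0.46, adjusted p = 0.0473). The other was IFI27, an interferon-induced mitochondrial protein (-1.03, adjusted p = 0.00496). IFI27 reached 1 FPKM in the WT libraries alone, so it entered the test only through the group where it was high. None of the 9 tested genes of RNA and DNA sensing and none of the 12 receptor and signalling genes was called by limma. All 21 interferon ligand genes stayed under the 1 FPKM threshold. SOCS1, an inhibitor of JAK kinases, was the 1 of 6 negative regulators called, with a log2 difference of -0.57 (limma adjusted p = 0.0148). With 3.23% of all genes called and lists this short, the counts only describe.

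With BIX, the 3 tested members fell in U2OS. OASL had 0.622 FPKM in KD with BIX and 1.65 FPKM in KD mock, and 0.610 FPKM in vector with BIX against 1.19 FPKM in vector mock. OAS1 had 0.543 FPKM in KD with BIX and 1.00 FPKM in KD mock, and 0.654 FPKM in vector with BIX against 1.15 FPKM in vector mock. OAS3 had 3.05 FPKM in KD with BIX and 4.90 FPKM in KD mock, and 3.28 FPKM in vector with BIX against 3.99 FPKM in vector mock. For all 3 genes both BIX values lay below both mock values. OASL and OAS1 reached 1 FPKM in the mock values alone, so for them this order followed from how they entered the test. OAS2 was again too low to test, at 0.113 FPKM in KD with BIX and 0.190 FPKM in KD mock, and 0.0937 FPKM in vector with BIX against 0.0918 FPKM in vector mock.

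The test was a limma fit of genotype plus treatment on the 4 values. It leaves 1 residual degree of freedom per gene, which also holds any difference in the BIX response between KD and vector. The log2 difference, BIX minus mock, was -0.58 for OASL (SE 0.129, adjusted p = 0.00544), -0.38 for OAS1 (SE 0.122, adjusted p = 0.0271) and -0.38 for OAS3 (SE 0.118, adjusted p = 0.0222). This fit called 65.6% of all genes, 33.5% higher and 32% lower, so a call of 3 members is read against a high background. OASL and OAS1 entered the test only through their mock values, where they were high, so their falls and p-values carry that limit. Under quantile normalization the calls of OAS1 and OAS3 were lost (limma adjusted p = 0.282 and 0.0778), and without the filter on low genes that of OAS3 (0.0991). That of OASL held in all 4 alternatives in which it was tested.

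By single ratios, no member was 2-fold apart between BIX and mock on the log2(FPKM + 1) scale. With a pseudocount of 0.1 in place of 1, OASL in KD passed 2-fold, with a log2 difference of -1.28. On the main scale, in KD the log2 differences were -0.71 for OASL, -0.54 for OAS3 and -0.37 for OAS1, where 11.7% of genes were 2-fold apart. In vector they were -0.45 for OASL, -0.22 for OAS3 and -0.38 for OAS1, where 10.6% were. The KD ratio minus the vector ratio came to 0.00 for OAS1, -0.32 for OAS3 and -0.26 for OASL, which could not be tested with 1 value per group. The summed family level was 4.33 FPKM in KD with BIX and 7.74 FPKM in KD mock, and 4.64 FPKM in vector with BIX against 6.42 FPKM in vector mock.

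**Figure D2:**
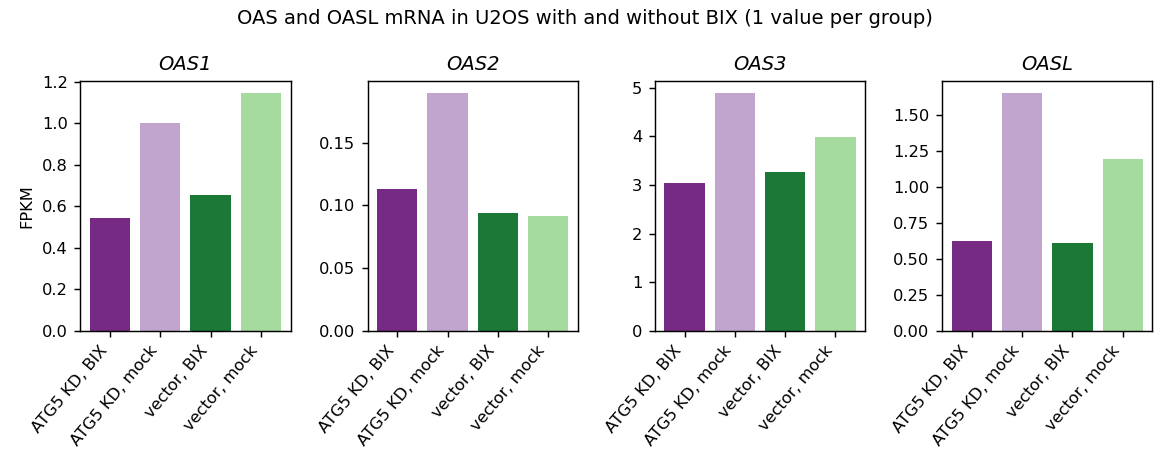
FPKM of the 4 human members in ATG5 KD and vector U2OS with BIX or mock, as bars of 1 deposited value per group, on a separate vertical scale per gene. The BIX bars of OAS1, OAS3 and OASL are lower than the mock bars in both KD and vector, and OAS2 stays at 0.190 FPKM or less.

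The ATG5 knockdown itself was called for none of the 3 tested members. Their log2 differences, KD minus vector over both treatments, were 0.14 for OASL (95% confidence interval -0.16 to 0.44), 0.08 for OAS3 (-0.20 to 0.36) and -0.10 for OAS1 (-0.38 to 0.18). The limma adjusted p were 0.478, 0.676 and 0.602, in a fit that called 14.7% of genes. No member was 2-fold apart in single ratios, with BIX (1.85% of genes) or in mock (0.953%).

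PDE12 and ABCE1 both rose with BIX in U2OS, in the fit that called 65.6% of all genes, 33.5% higher. PDE12 had 12.8 FPKM in KD with BIX and 6.95 FPKM in KD mock, and 11.9 FPKM in vector with BIX against 6.68 FPKM in vector mock (log2 difference 0.77, limma adjusted p = 0.000226). ABCE1 had 68.5 FPKM in KD with BIX and 41.3 FPKM in KD mock, and 61.6 FPKM in vector with BIX against 33.8 FPKM in vector mock (log2 difference 0.78, limma adjusted p = 0.000111). In both genes each BIX value lay above both mock values.

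Most other interferon-stimulated genes that were called with BIX in U2OS were lower. Of 30 on the list, 17 could be tested, and 10 fell and 2 rose, with a median log2 difference of -0.28 against 0.01 over all genes tested. The fit called 65.6% of all genes, so these counts are read against a high background. The largest falls were in IFI44 (-1.10, limma adjusted p = 6.32e-05), IFIT1, which binds viral RNA caps (-0.96, limma adjusted p = 0.000337), and HERC6 (-0.96, limma adjusted p = 0.000475). IFIT1, and DDX60 of the same list, reached 1 FPKM in the mock values alone. Both thus entered the test only through the group where they were high, and the median carries that limit. TRIM25, a ubiquitin ligase of RNA sensing whose row is joined with MIR3614, rose (0.90, limma adjusted p = 7.51e-05). Of 7 tested sensing genes, 3 fell and 1 rose, where 32% of all genes were called lower and 33.5% higher. The falls were DDX58, the RNA sensor RIG-I (-0.55), TMEM173, the cGAS adaptor STING (-0.60), and MAVS, the adaptor of RNA sensing (-0.47). All 21 interferon ligand genes again stayed under 1 FPKM. The row that joins EHMT2, the target of BIX, with ZBTB12 had 9.02 FPKM in KD with BIX and 20.3 FPKM in KD mock, and 10.8 FPKM in vector with BIX against 22.7 FPKM in vector mock.

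In L929 the members that were 2-fold apart between BIX and mock were all higher with BIX, and the level of the Oasl genes with BIX differed between the lines. With 1 library per group, the following ratios have no replicate check. Oasl1, the repressor of Irf7 translation, had 7.61 FPKM in cGAS KO with BIX and 1.17 FPKM in cGAS KO mock, and 97.7 FPKM in cGAS WT with BIX against 0.544 FPKM in cGAS WT mock. Oasl2 had 0.472 FPKM in cGAS KO with BIX and 0.266 FPKM in cGAS KO mock, and 18.9 FPKM in cGAS WT with BIX against 0.238 FPKM in cGAS WT mock. Oasl1 was thus above mock with BIX in both lines, and Oasl2 passed 1 FPKM only in the cGAS WT library with BIX.

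Oas1b, the flavivirus resistance gene, which is truncated in most laboratory strains, had 6.83 FPKM in cGAS KO with BIX and 0.737 FPKM in cGAS KO mock, and 13.1 FPKM in cGAS WT with BIX against 0.532 FPKM in cGAS WT mock. Oas1a, an active synthetase, had 2.95 FPKM in cGAS KO with BIX and 1.22 FPKM in cGAS KO mock, and 3.80 FPKM in cGAS WT with BIX against 2.22 FPKM in cGAS WT mock. Both Oas1 genes were higher with BIX in each line, and the Oas1b gap was the wider. Reads of the mouse Oas1 cluster can be shared between near-identical copies, of which Oas1g is one. Oas1g had 1.61 FPKM in cGAS KO with BIX and 0.708 FPKM in cGAS KO mock, and 1.66 FPKM in cGAS WT with BIX against 0.530 FPKM in cGAS WT mock. The other 5 paralogs listed stayed under 1 FPKM.

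Oas2 had 1.92 FPKM in cGAS KO with BIX and 0.166 FPKM in cGAS KO mock, and 0.705 FPKM in cGAS WT with BIX against 0.215 FPKM in cGAS WT mock. It was the 1 member with its highest value in the cGAS KO line. Oas3 had 0.538 FPKM in cGAS KO with BIX and 0.578 FPKM in cGAS KO mock, and 1.30 FPKM in cGAS WT with BIX against 0.369 FPKM in cGAS WT mock, so it was above mock in the cGAS WT line alone.

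**Figure D3:**
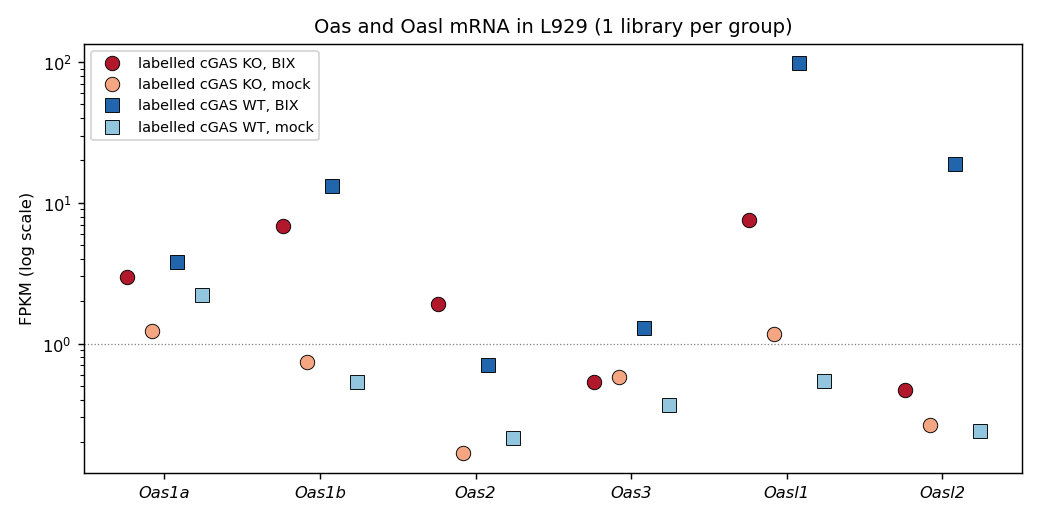
FPKM of the 6 mouse members on a log axis in L929 labelled cGAS KO (circles) and cGAS WT (squares), with BIX (dark) or mock (light), 1 point per library; the dotted line marks 1 FPKM. Oasl1 and Oasl2 with BIX stand at 97.7 and 18.9 FPKM in cGAS WT, and at 7.61 and 0.472 FPKM in cGAS KO.

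In the cGAS KO line, BIX minus mock on the log2(FPKM + 1) scale was 2.17 for Oas1b, 1.99 for Oasl1, 1.32 for Oas2, 0.83 for Oas1a, 0.22 for Oasl2 and -0.04 for Oas3. Of 6 members, 4 reached 1 FPKM in either library and 3 were 2-fold higher, where 13% of genes were 2-fold higher and 22.9% 2-fold apart. In the cGAS WT line the difference was 6.00 for Oasl1, 4.01 for Oasl2, 3.20 for Oas1b, 0.75 for Oas3, 0.58 for Oas1a and 0.49 for Oas2. There 5 of 6 reached 1 FPKM and 3 were 2-fold higher, where 7.41% of genes were 2-fold higher and 13.6% 2-fold apart. Members that reached 1 FPKM in the BIX library alone had to be higher there, so these counts only describe. The order of the members differed between the lines: Oasl1 and Oasl2 led in cGAS WT, and Oas1b led in cGAS KO with Oasl2 close to no difference.

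Over both lines, limma with genotype plus treatment could test 3 of 6 members, and Oas2, Oas3 and Oasl2 reached 1 FPKM in fewer than 2 libraries. As in U2OS, the fit leaves 1 residual degree of freedom per gene. It also holds any difference in the BIX response between the lines, so the p-values do not measure replicate spread. With BIX, Oas1b rose (log2 difference 2.69, SE 0.292, limma adjusted p = 0.000287) and so did Oasl1 (3.99, SE 0.676, limma adjusted p = 0.00211). The Oasl1 value averages 1.99 in cGAS KO and 6.00 in cGAS WT. Oas1b reached 1 FPKM in the BIX libraries alone. It thus entered the test only through the group where it was high, and its rise and p-value carry that limit. Oas1a differed by 0.70 (95% confidence interval 0.14 to 1.27, limma adjusted p = 0.0517). The fit called 38.3% of genes, 18.5% higher. Oas1b was called in all 5 alternatives. Oasl1 was lost with no filter on low genes (limma adjusted p = 0.0707), and Oas1a was called under quantile normalization (0.0365) and with no variance trend (0.0307).

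Between the 2 lines with BIX, Oasl2 and Oasl1 were the members 2-fold apart on the log2(FPKM + 1) scale, both lower in cGAS KO. With a pseudocount of 0.1, Oas3 (-1.13, lower in cGAS KO) and Oas2 (1.33, higher in cGAS KO) passed 2-fold as well. On the main scale, the log2 difference, cGAS KO minus cGAS WT, was -3.76 for Oasl2, -3.52 for Oasl1, -0.85 for Oas1b, -0.58 for Oas3, -0.28 for Oas1a and 0.77 for Oas2. In this pair of libraries 11.7% of genes were 2-fold apart and 5.28% 2-fold lower. Oasl2 and Oas3 reached 1 FPKM in the cGAS WT library alone and had to be lower in cGAS KO. Oas2 reached it in the cGAS KO library alone and had to be higher there, so the members 2-fold apart only describe. In mock, the 2 members that reached 1 FPKM differed by -0.53 (Oas1a) and 0.49 (Oasl1), and 7.83% of genes were 2-fold apart. Over both treatments, limma called none of the 3 tested members between the lines: Oasl1 differed by -1.52 (95% confidence interval -3.02 to -0.01, adjusted p = 0.162), in a fit that called 14.9% of genes. That value averages -3.52 with BIX and 0.49 in mock, and its interval also holds the gap between them.

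The BIX difference in cGAS KO minus that in cGAS WT was -4.01 for Oasl1, -3.79 for Oasl2, -1.03 for Oas1b, -0.79 for Oas3, 0.25 for Oas1a and 0.83 for Oas2. With 1 library per group this contrast has no test. By the step between low values, the cGAS KO library with BIX held 1.35 times the reads of the cGAS WT library with BIX, and depth is a further limit for genes under 1 FPKM. The 2 lines also differed in genes outside the interferon system. In cGAS KO against cGAS WT over both treatments, limma gave log2 differences of 3.76 for Fn1, 3.36 for Col1a2 and 2.10 for Col1a1, all made by fibroblasts. It gave -2.10 for Cd68, a lysosomal protein abundant in macrophages. Other listed fibroblast markers did not all go the way of Fn1. In mock, cGAS KO minus cGAS WT was 0.36 for Sparc and 0.02 for Vim, but -0.86 for Pdgfrb and -0.36 for S100a4. The summed leukocyte markers were 30.3 FPKM in cGAS KO with BIX and 5.11 FPKM in cGAS KO mock, and 80.5 FPKM in cGAS WT with BIX against 41.2 FPKM in cGAS WT mock. Nearly all of it was Cd68, since of the 4 markers 1 was at 0 in each BIX library and 3 in each mock library. The part of these line differences in the Oasl values was not tested.

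**Figure D4:**
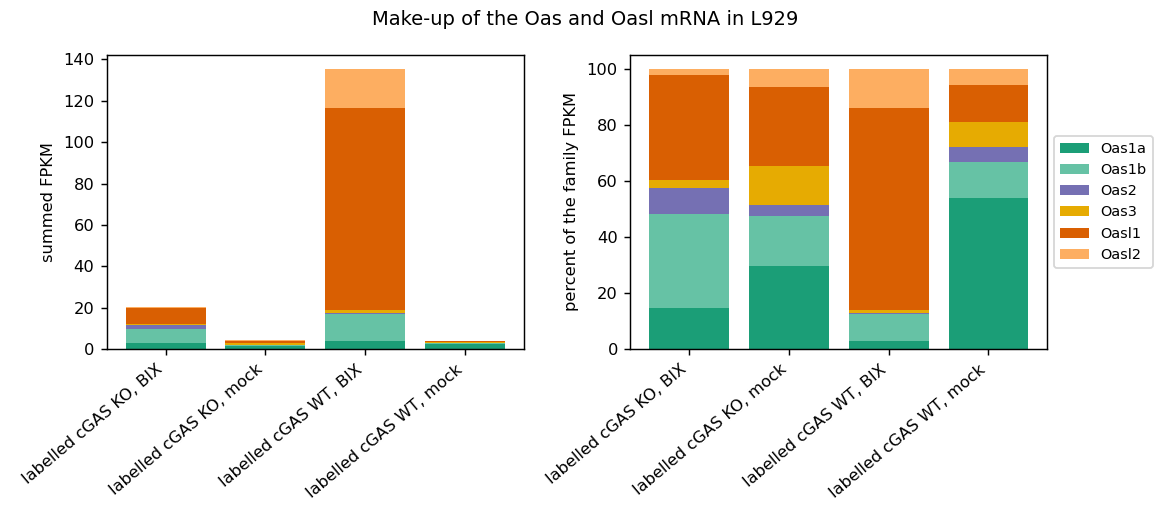
Summed FPKM of the 6 members (left) and each member's percent of that sum (right) in the 4 L929 libraries. The sum is 20.3 FPKM in cGAS KO with BIX and 135.6 FPKM in cGAS WT with BIX, and Oasl1 makes up 37.4% and 72.1% of them.

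The make-up of the family in L929 shifted with the total. The sum was 20.3 FPKM in cGAS KO with BIX and 4.14 FPKM in cGAS KO mock, and 135.6 FPKM in cGAS WT with BIX against 4.12 FPKM in cGAS WT mock. The 2 mock libraries had nearly the same total and a different make-up. Oas1a was 29.6% of it in cGAS KO mock against 53.9% in cGAS WT mock, and Oasl1 was 28.2% against 13.2%. With BIX, Oasl1 was the leading member in both lines.

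Abce1 also rose with BIX over both L929 lines (log2 difference 0.77, limma adjusted p = 0.00554), where 38.3% of genes were called, 18.5% higher. The row joining Pde12 with Mir7672 was not called.

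The interferon ligands and the other interferon-stimulated genes were set beside the members. Of 19 listed ligand genes, Ifna4 and Ifna1 alone reached 1 FPKM. Ifna4 had 6.07 FPKM and Ifna1 1.502 FPKM in cGAS WT with BIX, and both were listed at 0 in the other 3 libraries. Ifnb1, an early type I interferon of fibroblasts, had 0.291 FPKM in cGAS KO with BIX and 0.597 FPKM in cGAS WT with BIX, and was listed at 0 in both mock libraries. Of the other interferon-stimulated genes, 5 of the 21 that reached 1 FPKM were 2-fold higher with BIX in cGAS KO, and 18 of 28 in cGAS WT, none lower in either. Their median log2 difference was 0.43 in cGAS KO and 1.18 in cGAS WT, while that over all genes was -0.04 in each, and the share of all genes 2-fold higher was 13% in cGAS KO and 7.41% in cGAS WT. As with the members, genes that reached 1 FPKM in the BIX library alone had to be higher there, and the 2 counts are over different sets of genes, so they only describe.

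Rsad2, the antiviral enzyme viperin, had 0.218 FPKM in cGAS KO with BIX against 64.9 FPKM in cGAS WT with BIX. Ifit1 had 0.106 FPKM in cGAS KO with BIX against 67.5 FPKM in cGAS WT with BIX. Isg15, a ubiquitin-like modifier, had 4.32 FPKM in cGAS KO with BIX against 73.4 FPKM in cGAS WT with BIX. These 3 genes, like Oasl1 and Oasl2, were far lower in cGAS KO with BIX. In all, 12 of 28 genes of the list were 2-fold lower in cGAS KO with BIX and 1, Ifitm1, was higher, where 5.28% of all genes were 2-fold lower. Rsad2, Ifit1 and others reached 1 FPKM in the cGAS WT library alone and had to be lower in cGAS KO, so this count only describes. A further group was higher with BIX in both lines: Ifit2, Ifi27, Irgm1, Irf9 and Ddx58 were among the genes called by limma over both lines, with log2 differences of 1.90, 1.51, 1.85, 1.68 and 1.59.

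Most human members were lower with BIX than in mock and most mouse members higher. Log2 differences of the human members ranged from -0.71 to 0.00, and those of the mouse members from -0.04 to 6.00. The lines differ in species, set and table, so this contrast was not tested.

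**Figure D5:**
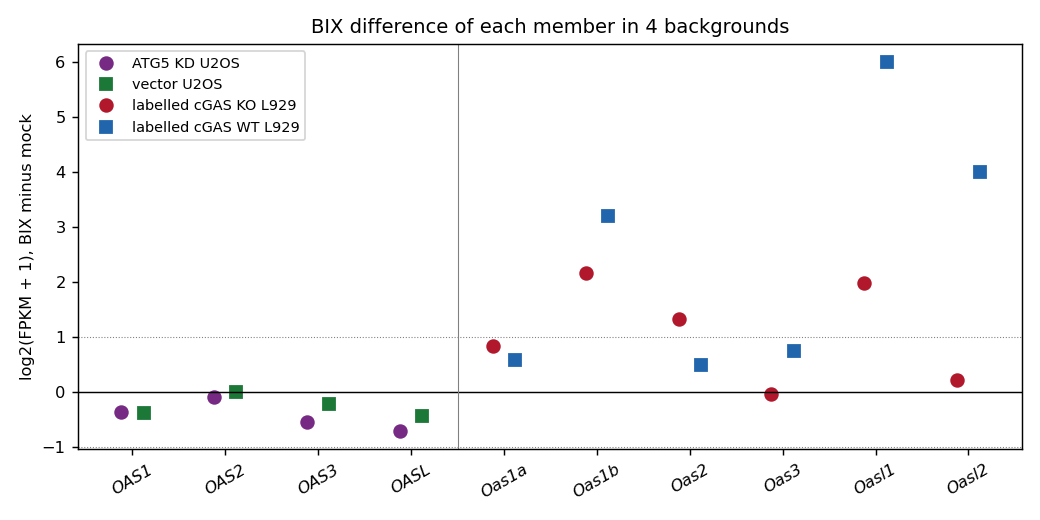
Log2(FPKM + 1) with BIX minus mock for each member in ATG5 KD and vector U2OS (left of the line) and in L929 labelled cGAS KO and cGAS WT (right of it), 1 point per pair of values; dotted lines mark 2-fold. No human member reaches 2-fold, while Oas1b and Oasl1 pass it upward in both L929 lines and Oasl2 in cGAS WT alone.

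The genes with the profile most like that of the leading member were ranked by the root mean square difference of centred log2(FPKM + 1). Over the 10 U2OS values, centred within each set, the 5 nearest to OAS3 among 11878 genes were ZNF682, ZNF268, TNFSF9, METTL8 and BRE, at 0.07 to 0.10. OAS1 ranked 348 at 0.20 and OASL 4067 at 0.30, and OAS2, too low for the ranking, lay at 0.23. Over the 4 L929 libraries, the 5 nearest to Oasl1 among 11044 genes were Ifit3, Cxcl10, Isg15, Atp13a4 and Ccl4, at 0.67 to 1.02. Oas1b ranked 12 and Oas1a 1137. Oasl2, which was too low for the ranking, lay at 0.96.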

How the data were processed

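Poly(A) RNA was made into TruSeq libraries and sequenced as paired ends, per the labels' protocols. Reads were checked with FastQC, trimmed with cutadapt, mapped by TopHat2 (human hg19, mouse mm10) and quantified with Cufflinks, per the submitters' processing notes. No source used here gives versions, strandedness or gene annotation. The deposited values are FPKM per gene, 1 table per set, used as the authors gave them; read totals are unknown. Cufflinks divides reads between overlapping and similar genes, which matters for the mouse Oas1 cluster, and joined loci carry several symbols. FPKM is relative, so a change in total RNA per cell is not seen.

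Where several rows carried 1 symbol, the row with the highest mean FPKM was kept. Short RNAs (1867, 1772 and 1114) were left out. Genes were kept if 2 or more libraries had 1 FPKM or above (12619, 12390 and 11045). Limma 3.58.1 (R 4.3.3; trend, Benjamini-Hochberg, adjusted p under 0.05) was run on log2(FPKM + 1), per group in the SETDB1 set and as genotype plus treatment in the others. Single values were compared by ratio on the same scale (FPKM + 1), with genes at FPKM of at least 1 in either value, and called at 2-fold without a test. The limma steps were tested on simulated data. Same-numbered SETDB1 libraries correlated at 0.37, 0.00 and 0.20 in their deviations, so the numbers were not taken as pairs. No unmapped column was used. A joined locus entered a list only if its genes, short RNAs aside, were all on that list.

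Members and lists were chosen with earlier results of these data known. All members were named, up to 4 genes per list by size of difference, and the 5 genes most like the leading member. In L929, the 5 genes named as higher in both lines were chosen after their values were seen. Alternatives were pseudocount 0.1, FPKM of at least 5, no filter, quantile normalization, no variance trend, a replicate block, leaving out each library, and 1.5-fold. Promoters came from RefSeq (GRCh38.p14; symbols of 2 of 4 human members matched) and were searched with Python 3.11.15. Of the pathway list, 1 gene is not reported here.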

Additional observations from a re-analysis of the deposited data

Results flagged for a closer look

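The effect of the cGAS KO label on Oasl1 had opposite signs in the 2 treatments. The log2 difference, cGAS KO minus cGAS WT, was -3.52 with BIX and 0.49 in mock. For Oasl2 it was -3.76 with BIX and 0.032 in mock. The BIX ratio had opposite signs in the 2 cell lines for OAS1 against Oas1a and Oas1b, and for OASL against Oasl1 and Oasl2. It was -0.37 in ATG5 KD and -0.38 in vector for human OAS1, against 2.17 in cGAS KO and 3.20 in cGAS WT for mouse Oas1b. For human OASL it was -0.71 in ATG5 KD and -0.45 in vector, against 1.99 in cGAS KO and 6.00 in cGAS WT for mouse Oasl1, and 0.22 and 4.01 for Oasl2. For Oas1a the BIX ratio was 0.83 in cGAS KO and 0.58 in cGAS WT. OAS3 and OAS2 did not split this way from Oas3 and Oas2. OAS3 was at -0.54 in ATG5 KD and -0.22 in vector, against -0.04 in cGAS KO and 0.75 in cGAS WT for Oas3. OAS2 was at -0.10 in ATG5 KD and 0.00 in vector, against 1.32 in cGAS KO and 0.49 in cGAS WT for Oas2. Each of these contrasts rests on 1 value per group, and none of the differences was tested. Mock levels of Oasl1 and Oasl2 lay near or under 1 FPKM in both L929 lines. No group held enough libraries to look for a single library apart from the rest.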

How the results depend on the processing

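Of 271 values recomputed under another setting, 232 kept their direction and their call, or stayed within the spread between replicates. The number of members called in SETDB1 KO1 against WT and in KO2 against WT, 1 each, became 0 and 0 with no filter, and ranged from 0 to 1 when each library was left out. For the mean of both knockouts it stayed at 1 in every such case. With the replicate number as a block the count of members called was 1, 1 and 1 for the mean of the knockouts, KO1 and KO2, and 0 for KO1 against KO2; the block changed no call. The 3 members called with BIX in U2OS became 1 under quantile normalization and 0 at FPKM of at least 5, where no member was tested. The 2 called with BIX in L929 became 1 with no filter. By single ratios, the members apart with BIX in ATG5 KD U2OS went to 1 with a pseudocount of 0.1 and at 1.5-fold. Those apart between the L929 lines with BIX went to 4 under both. Signs turned on leaving out 1 library for differences near 0: OASL in KO1 against WT ranged from -0.22 to 0.0088, and in KO1 against KO2 OAS1 ranged from -0.30 to 0.11, OAS3 from -0.088 to 0.027 and OASL from -0.069 to 0.16. Their causes were not tested. Over all genes, the calls moved more. The SETDB1 mean gave 407 (201 to 507 under the alternatives), KO1 304 (150 to 392), KO2 307 (147 to 367) and KO1 against KO2 0 (0 to 5). The ATG5 knockdown gave 1821 (1 to 2041), BIX in L929 4228 (1544 to 4240) and the cGAS label 1650 (32 to 1633). The 2-fold counts grew at 1.5-fold or a pseudocount of 0.1, to at most 4022 and 4164 with BIX in vector and KD, 490 and 955 for KD in mock and with BIX, 5379 and 3939 with BIX in cGAS KO and WT, and 2422 and 3653 between the lines in mock and with BIX. Depth limits what can be said of OAS2, and of Oas2, Oas3 and Oasl2 in mock.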

Other observations

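The shares of signalling genes called with BIX are to be read against 65.6% of all genes called in U2OS and 38.3% in L929. In U2OS, of 5 tested negative regulators 2 rose and 2 fell by limma. SOCS1 had 1.92 FPKM in KD with BIX and 10.4 FPKM in KD mock, and 1.32 FPKM in vector with BIX against 8.25 FPKM in vector mock (log2 difference -1.98, limma adjusted p = 9.68e-06). PTPN2, a phosphatase of JAK and STAT proteins, rose by 0.91 on the log2 scale (limma adjusted p = 5.41e-05). Of 10 tested receptor and signalling genes, 4 rose and 3 fell, among them IRF1, an interferon-induced transcription factor (0.98), and IFNAR1, a chain of the type I interferon receptor (0.67). In L929, 4 of 6 negative regulators rose and none fell. Usp18, which removes Isg15 from proteins, rose by 2.02 (limma adjusted p = 0.00102) and Ptpn2 by 1.04 (limma adjusted p = 0.00244). Usp18 reached 1 FPKM in the BIX libraries alone. It entered the test only through the group where it was high, so its rise, its p-value and the count carry that limit. Of 11 tested receptor and signalling genes there, 2 rose and 4 fell. Ifnar1 fell by 1.15 on the log2 scale in L929 (limma adjusted p = 0.00396). Of 9 sensing genes in L929, 2 rose and 3 fell.

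Between the L929 lines in mock, 17 of the interferon-stimulated genes reached 1 FPKM. Of these, 2 were 2-fold higher and 2 were 2-fold lower in cGAS KO, where 7.83% of all genes were 2-fold apart. Ifitm1 had 9.71 FPKM in cGAS KO mock against 0.177 FPKM in cGAS WT mock, and so had to be higher in cGAS KO to be counted. Samd9l had 5.00 FPKM in cGAS KO mock against 1.93 FPKM in cGAS WT mock, while with BIX it had 2.59 FPKM in cGAS KO against 17.1 FPKM in cGAS WT. Bst2 had 20.6 FPKM in cGAS KO mock against 67.0 FPKM in cGAS WT mock, and Ube2l6 had 17.3 FPKM in cGAS KO mock against 49.2 FPKM in cGAS WT mock. Over both treatments limma called 1 of 21 tested genes of the list higher and 3 lower in cGAS KO, where 14.9% of all genes were called. Among them were Ifitm1, Bst2 and Ube2l6, with log2 differences of 2.15, -1.42 and -1.35.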
